A study of Mus musculus with 6 samples.

Results

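The integrated stress response was examined through 40 genes: the eIF2α kinases, ATF4 and the transcription factors around it, their feedback and effector genes, and ATF4 targets in amino acid synthesis, amino acid uptake and tRNA charging. The members were taken by gene symbol from a fixed list, and all 40 were found among the 23282 genes listed for each sample. Of these, 37 had a mean log2 value of at least 1 and were tested, while Sesn2, Pycr1 and Vldlr fell below that level. The data are 3' mRNA libraries (QuantSeq, in which a read marks the end of a transcript) from mouse CD4 T cells of spleen and lymph nodes, with 3 WT and 3 AMPK KO samples on the C57BL/6 background. Both groups carried floxed Prkaa1, the gene of the AMPK catalytic subunit α1. WT mice lacked Cre, and AMPK KO mice carried CD4Cre, a transgene that is also switched on in the CD4 and CD8 double-positive thymocytes from which CD8 T cells arise. According to the labels, the cells of both groups rested for 1 h and were stimulated for 24 h with anti-CD3/CD28 at 2 µg/ml, whereas the methods of the study give a shorter stimulation for these libraries. The comparison asked whether the genes that respond to amino acid shortage and to stress on translation differed when the T cells lacked AMPK.

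In this pathway, 4 kinases sense different stresses and phosphorylate the same initiation factor, eIF2α: PERK for unfolded protein in the endoplasmic reticulum, GCN2 for uncharged tRNA, PKR for double-stranded RNA and HRI for haem shortage. Phosphorylated eIF2α slows general translation and favours translation of the ATF4 mRNA. ATF4 then pairs with C/EBP proteins on a composite element in its target promoters and induces genes that make, import and charge amino acids. Activated T cells need amino acids for growth, and AMPK, a kinase that senses low cellular energy, restrains several of the same anabolic steps. ATF4 is set largely by translation, so its mRNA level does not report the amount of ATF4 protein.

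The composite element was searched in the RefSeq promoter windows (build GRCm38.p6, 250 bases before to 50 after the start), which held 33 of the 40 members. The letters searched were TTGCATCA on both strands, and a looser form, TGATGNAAN on both strands, which overlaps the first. TTGCATCA stood in 9 of 33 member promoters (27.3%), against 279 of 27025 genes of the table (1.03%) and 71 of 8567 genes that were also tested here (0.829%). The looser form stood in 12 of 33 member promoters (36.4%), against 4.5% of all genes of the table and 2.79% of those tested. The member shares include Vldlr and Pycr1, which held both forms, and Sesn2, which held neither, though none of them was tested. Of the tested members with a promoter entry, 7 held TTGCATCA and 23 did not. For the looser form these counts were 10 and 20. Several members are known as ATF4 targets because such elements were studied in their promoters, so this share is a description of the list. The windows below are shown because they carry the element in genes whose values are given further on, and the capitals mark the matched letters. Position is counted from the first transcribed base, which is 0, and each sequence runs 5′ to 3′ on the strand of the gene.
Slc7a11, first site, at -66 (chr3:50443661-50443690, minus strand): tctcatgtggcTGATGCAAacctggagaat
Slc7a11, second site, at -47 (chr3:50443642-50443671, minus strand): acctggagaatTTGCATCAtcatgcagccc
Chac1, at -193 (chr2:119351038-119351067, plus strand): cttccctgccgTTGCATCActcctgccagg
Tars, at -15 (chr15:11399659-11399688, minus strand): gggccaggagtcccgTTGCATCAgctggtt
Asns, looser form, at -23 (chr6:7693213-7693242, minus strand): cccagccacaTGATGAAACttcccgcacgc

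Slc7a11 was the member with 2 sites of the stricter form, in opposite orientation. Further members with that form included Vldlr at -200, Pycr1 at -103, Slc1a4 at -4, Yars at 3 and Iars at 7. Gars at -31 and Trib3 at 13 held the looser form alone, as Asns did. The 7 tested members with the stricter form all averaged higher in AMPK KO, the median log2 difference being 0.40 with a range from 0.08 for Yars to 1.95 for Slc7a11. The 23 tested members with a promoter entry but without the stricter form had a median of 0.21, and 16 of them had a higher mean. These medians are given as a description without a test.

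**Figure D1:**
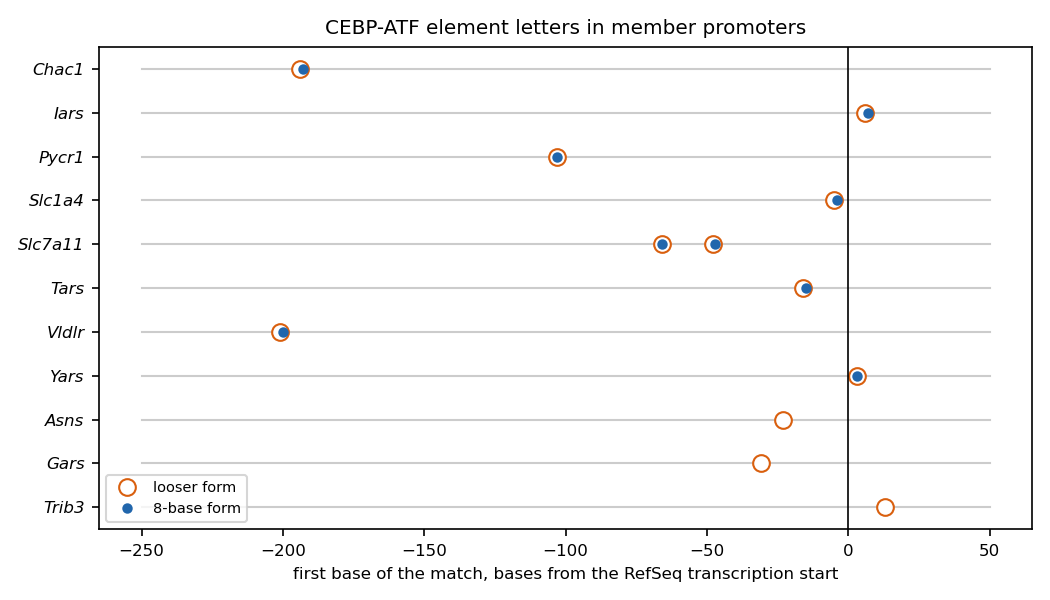
Positions of the element letters in the promoters of 11 of the 12 members that held them, as bases from the RefSeq transcription start (x axis), 1 member per line. Filled points mark the stricter form and open circles the looser form. The sites lie between -201 and 13, and Slc7a11 has 2 of the stricter form.

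Between 9575096 and 10168121 reads were recovered per WT library from the deposited values, and between 10515155 and 11185360 per AMPK KO library. Rn45s, the ribosomal RNA precursor, took a larger share of the reads in WT, 22.4% ± 2.21 (SD, n = 3), than in AMPK KO, 9.89% ± 1.24 (SD, n = 3). Prkaa1, the targeted gene, was at log2 values of 4.64, 5.24 and 4.86 in WT against 4.08, 4.72 and 4.67 in AMPK KO. The groups overlapped, and the difference of -0.43 (SE 0.25) did not pass the test (adjusted p = 0.357, limma). A 3' read lies at the end of the transcript, and the sources used here do not place it relative to the deleted part of Prkaa1, so this level may not check the deletion. A pair of sex-linked transcripts separated the groups although the methods describe female mice: Xist, expressed from the inactive X chromosome, had 8 to 32 reads in the WT libraries against 1998 to 2876 under AMPK KO, while the reads of Y-linked Ddx3y numbered 3158 to 3462 without Cre and 1296 to 1840 under AMPK KO. Every AMPK KO library held many reads of both genes, so these samples cannot be taken as female only. Sex and genotype cannot be told apart in these libraries. All 12 T cell markers listed in the files were detected, and 10 of them had a lower mean in AMPK KO (3 called lower: Cd3e at -0.66, Cd3g at -0.93 and Cd28 at -0.56; 1 called higher: Thy1 at 0.50), with a summed level of 2776 to 2943 in WT and 2329 to 2741 in AMPK KO. All 20 myeloid markers had a higher mean in AMPK KO, 9 of them past the test, with a summed level of 880.5 to 946.2 in WT and 1266 to 2173 in AMPK KO, and none was at 0. Of the other marker lists, 6 of 7 plasma cell markers averaged higher (Jchain called, at 2.60), summed at 213.7 to 277.9 in WT and 565.6 to 573.7 in AMPK KO, as did 6 of 7 NK cell markers (Klrk1 called, at 1.62; 115.9 to 140.5 and 165.9 to 210.9), both CD8 markers (230.7 to 305.2 and 321.4 to 376.0) and 3 of 3 platelet markers (Pf4 called, at 1.62; 7.23 to 16.1 and 17.5 to 29.4), while 7 of 10 neutrophil markers averaged lower (Ngp and Ltf called, at -1.53 and -1.54; 797.1 to 913.2 and 524.3 to 765.2). No B cell, erythroid or regulatory T cell marker was called by limma, and the summed levels of these lists overlapped between the groups. Of their markers, 1 of 11, 0 of 7 and 1 of 3 had an unadjusted p under 0.05. B cell markers summed to 335.9 to 356.2 in WT and 326.9 to 387.2 in AMPK KO. Erythroid markers summed to 3992 to 4599 and 2891 to 5574, and regulatory T cell markers to 204.3 to 258.3 and 187.9 to 382.7. Cd4 had a mean log2 value of 6.69 in WT and 6.33 in AMPK KO. The means were 6.68 and 7.02 for Cd8a, and 7.45 and 8.42 for Csf1r. The part of all these markers in the results was not tested. In bulk samples, fewer cells of a type and less RNA per cell cannot be told apart.

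Across the 37 tested members, 28 had a higher mean in AMPK KO and 9 a lower mean. The median log2 difference was 0.30, against 0.015 over all 11279 genes tested, and 0.25 when all 39 members above 0 were counted. One member, Slc7a11, passed the test (limma on the log2 values, adjusted p under 0.05 over all genes tested). In the background, 2.54% of genes were called higher and 3.10% lower. No member was called lower by limma. At an unadjusted p under 0.05 there were 8 members (21.6%), of which Eif2ak3 and Sars were lower, against 21.3% of all genes tested. In 8 members (21.6%) every AMPK KO sample was above every WT sample, against 11.6% of all genes. Among these 8, Asns passed the limit on low values through its AMPK KO level alone. In 2 members (5.41%) every AMPK KO sample was below, against 14.0% of all genes. With 3 samples against 3, an exact two-sided permutation test cannot go below 0.1, and each of these 10 members had that p.

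**Figure D2:**
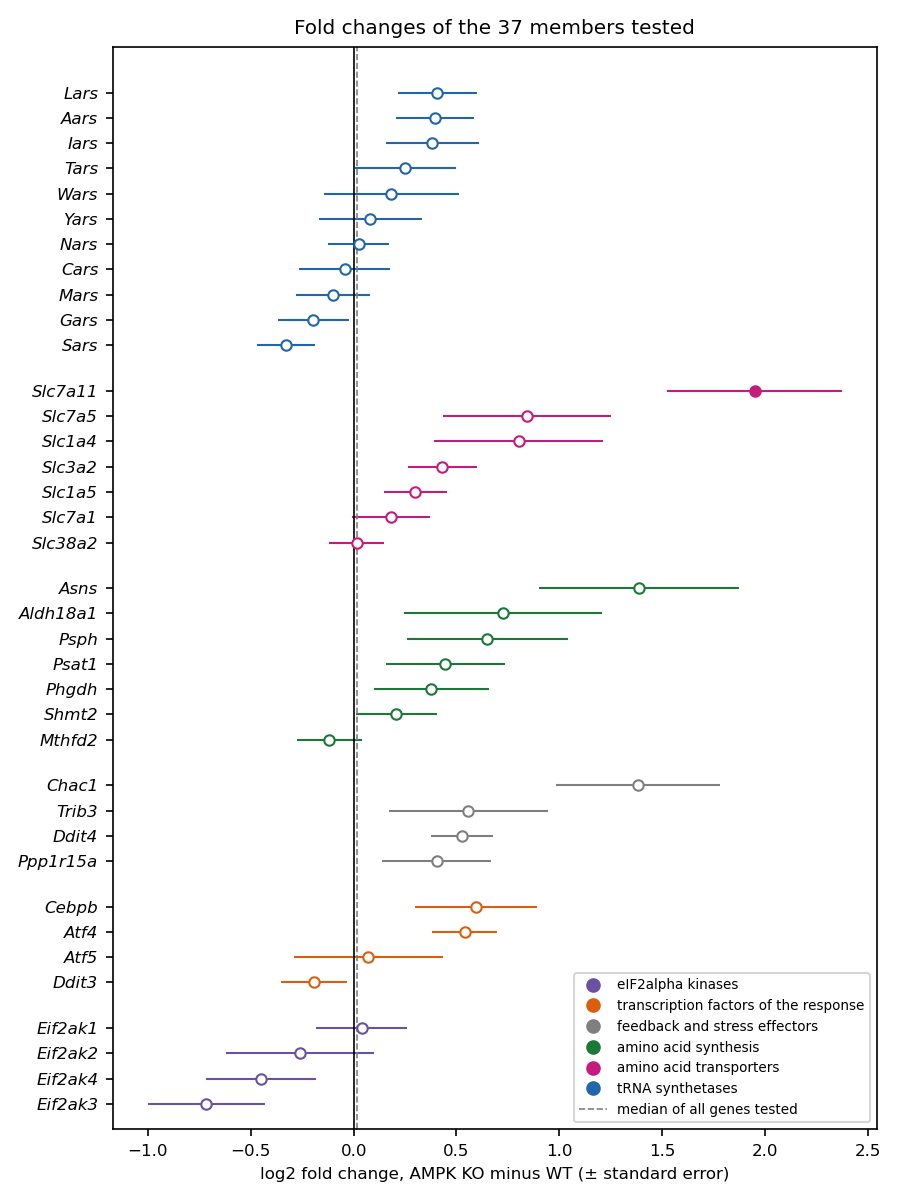
Difference of the mean log2 values, AMPK KO minus WT (x axis), with its standard error (bars) for the 37 members tested, grouped and coloured by role. The filled point marks the member past the test, Slc7a11 at 1.95, and the dashed line the median of all genes tested at 0.015; the 7 transporters all lie above 0, and 3 of the 4 kinases below it.

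The eIF2α kinases, at the head of the pathway, had a lower mean in AMPK KO in 3 of 4 cases, and none passed the test. Eif2ak4, which encodes GCN2, was at 4.06, 4.05 and 3.93 in WT and at 3.61, 3.49 and 3.59 in AMPK KO. The groups did not overlap, on 110 to 156 reads per library, and the difference was -0.45 (SE 0.27, adjusted p = 0.353, limma). Eif2ak3, which encodes PERK, was at 5.08, 4.95 and 4.82 in WT and at 4.23, 3.63 and 4.84 in AMPK KO. The third AMPK KO sample lay within the WT range and the second was far below it, and the difference was -0.72 (SE 0.29, adjusted p = 0.160, limma). Without the third AMPK KO sample Eif2ak3 was called lower, at -1.02 (adjusted p = 0.0464, limma), and without the second the difference shrank to -0.41 (adjusted p = 0.311, limma). Eif2ak2, which encodes PKR, was at 3.40, 3.29 and 3.16 in WT and at 3.17, 2.35 and 3.55 in AMPK KO, a difference of -0.26 that turned to 0.08 without the second AMPK KO sample. Eif2ak1, which encodes HRI, differed by 0.04 (SE 0.22), and its last 1000 bases lie opposite Aimp2.

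Of the 4 transcription factors, 3 had a higher mean in AMPK KO and none passed the test. Atf4 was at 10.09, 9.84 and 10.09 in WT and at 10.39, 10.83 and 10.42 in AMPK KO, on 9172 to 19484 reads per library. All 3 AMPK KO samples were above all 3 WT samples, and the mean level before the log was 1.46 times that of WT. The log2 difference of 0.54 (SE 0.16) missed the threshold (adjusted p = 0.0574, limma). It passed without the second AMPK KO sample, which held the highest Atf4 level, with a smaller difference of 0.40 and an adjusted p of 0.0288 (limma). It also passed by voom on recovered reads (adjusted p = 0.0480, limma) and with a robust spread (adjusted p = 0.0343, limma). Over all 14 alternatives its difference ranged from 0.40 to 0.62 and its adjusted p from 0.0288 to 0.202 (limma).

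Cebpb, a C/EBP partner of ATF4, was at 4.35, 4.10 and 3.48 in WT and at 4.55, 4.97 and 4.19 in AMPK KO, a difference of 0.60 (SE 0.29, adjusted p = 0.262, limma). Its groups overlapped, and it too was highest in the second AMPK KO sample. Within its last 1000 bases it shares 404 with Tmem189 on the other strand, in a stretch that stops short of its end. Atf5, a relative of ATF4 that is also favoured by eIF2α phosphorylation, ranged from 2.71 to 3.96 in WT and from 3.03 to 3.60 in AMPK KO, so that the AMPK KO values lay inside the WT range. Its difference of 0.07 turned to -0.0048 under quantile normalization and to -0.22 without the first WT sample.

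Ddit3 encodes CHOP, the factor linked to prolonged stress and cell death. It was at 7.90, 7.69 and 8.02 in WT and at 7.65, 7.95 and 7.42 in AMPK KO, a difference of -0.19 (SE 0.16, adjusted p = 0.527, limma). Ddit3 and Mars, the methionyl-tRNA synthetase gene and also a member, end tail to tail on opposite strands of chromosome 10, and share 68 bases at chr10:127296221-127296288 (GRCm38, GENCODE M21). Mars was at 7.78, 7.31 and 7.77 in WT and at 7.52, 7.81 and 7.23 in AMPK KO, so that both genes had their lowest WT value in the second sample and their lowest AMPK KO value in the third. The log2 difference of Ddit3 over Mars within a sample ranged from 0.125 to 0.382 in WT and from 0.136 to 0.199 in AMPK KO. Whether the counting used strand is not given in the sources used here, so reads of the pair cannot be told apart and neither level is certain. The same holds for the other members that overlap a gene of the opposite strand at their ends, among them Eif2ak1, Ppp1r15a, Slc7a5, Shmt2 and Yars.

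**Figure D3:**
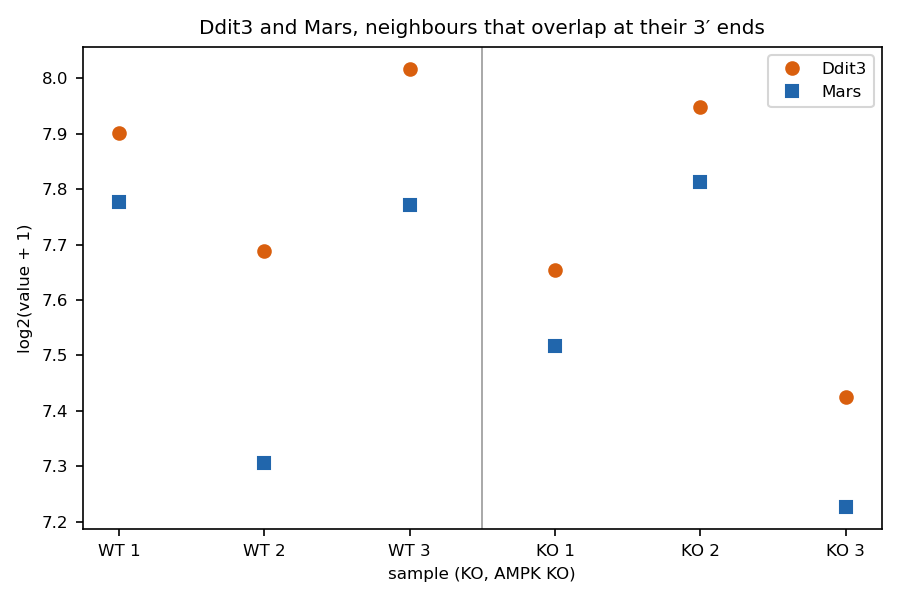
Deposited log2 values (y axis) of Ddit3 (circles) and Mars (squares) in each of the 6 samples (x axis). In every sample Ddit3 lies 0.125 to 0.382 above Mars, and the pair is lowest in the third AMPK KO sample.

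Of the 6 feedback and stress effectors, the 4 tested members averaged higher in AMPK KO by a median of 0.54, and none passed the test. Chac1 encodes an enzyme that degrades glutathione. It was at 2.01, 2.10 and 1.01 in WT and at 3.14, 3.0 and 3.14 in AMPK KO, which were 28, 33 and 9 reads against 93, 75 and 93. The AMPK KO samples lay close together and above every WT sample, with a mean level 3.08 times that of WT. The log2 difference of 1.38 (SE 0.40) was the nearest to the threshold among members not called (adjusted p = 0.0556, limma), and it passed without the second WT sample, at 1.58 (adjusted p = 0.0464, limma), and with a robust spread (adjusted p = 0.0490, limma). Without the third WT sample it was 1.03 (adjusted p = 0.203, limma).

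Ddit4, which encodes REDD1, an inhibitor of mTORC1, was at 6.68, 6.48 and 6.48 in WT and at 7.24, 7.04 and 6.95 in AMPK KO. The groups did not overlap, on 783 to 1780 reads, and the difference of 0.53 (SE 0.15) had an adjusted p of 0.0569 (limma). It passed under quantile normalization (0.59, adjusted p = 0.0369, limma), where genes with a mean under 3 were left out (adjusted p = 0.0493, limma), and without the second AMPK KO sample (0.55, adjusted p = 0.0291, limma). Over all 14 alternatives it ranged from 0.45 to 0.59, with an adjusted p of up to 0.268 (limma).

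Ppp1r15a encodes GADD34, the phosphatase subunit that reverses eIF2α phosphorylation. It was at 7.20, 7.72 and 6.96 in WT and at 7.88, 6.96 and 8.25 in AMPK KO, a difference of 0.40 (SE 0.27, adjusted p = 0.413, limma). The second AMPK KO sample was as low as the lowest WT sample while the other two were above all WT samples, and without it the difference was 0.77 (adjusted p = 0.0113, limma). Without the third AMPK KO sample it was 0.13 (adjusted p = 0.838, limma). The last 717 bases of Ppp1r15a lie opposite Tulp2, so its reads share the doubt on strand. Trib3, a pseudokinase that restrains ATF4 and CHOP, was at 3.10, 2.20 and 2.58 in WT and at 2.56, 3.62 and 3.38 in AMPK KO, a difference of 0.56 (SE 0.39, adjusted p = 0.439, limma) with overlapping groups.

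Sesn2, a leucine sensor that holds back mTORC1, ran the other way. Its reads numbered 20, 20 and 16 in WT against 0, 0 and 14 in AMPK KO, with log2 values of 1.66, 1.58 and 1.49 against 0, 0 and 1.12. All AMPK KO values were below all WT values, and in the fit without a filter on low values the difference was -1.21 (adjusted p = 0.133, limma). A count of 0 allows up to 3 reads, by counting error alone. Of 1670 genes with a median of 10 to 30 reads, 5.21% to 7.31% were listed at 0 in a WT library and 0.778% to 2.93% in an AMPK KO library. Vldlr, a lipoprotein receptor and ATF4 target, was listed at 0 in all 6 libraries.

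**Figure D4:**
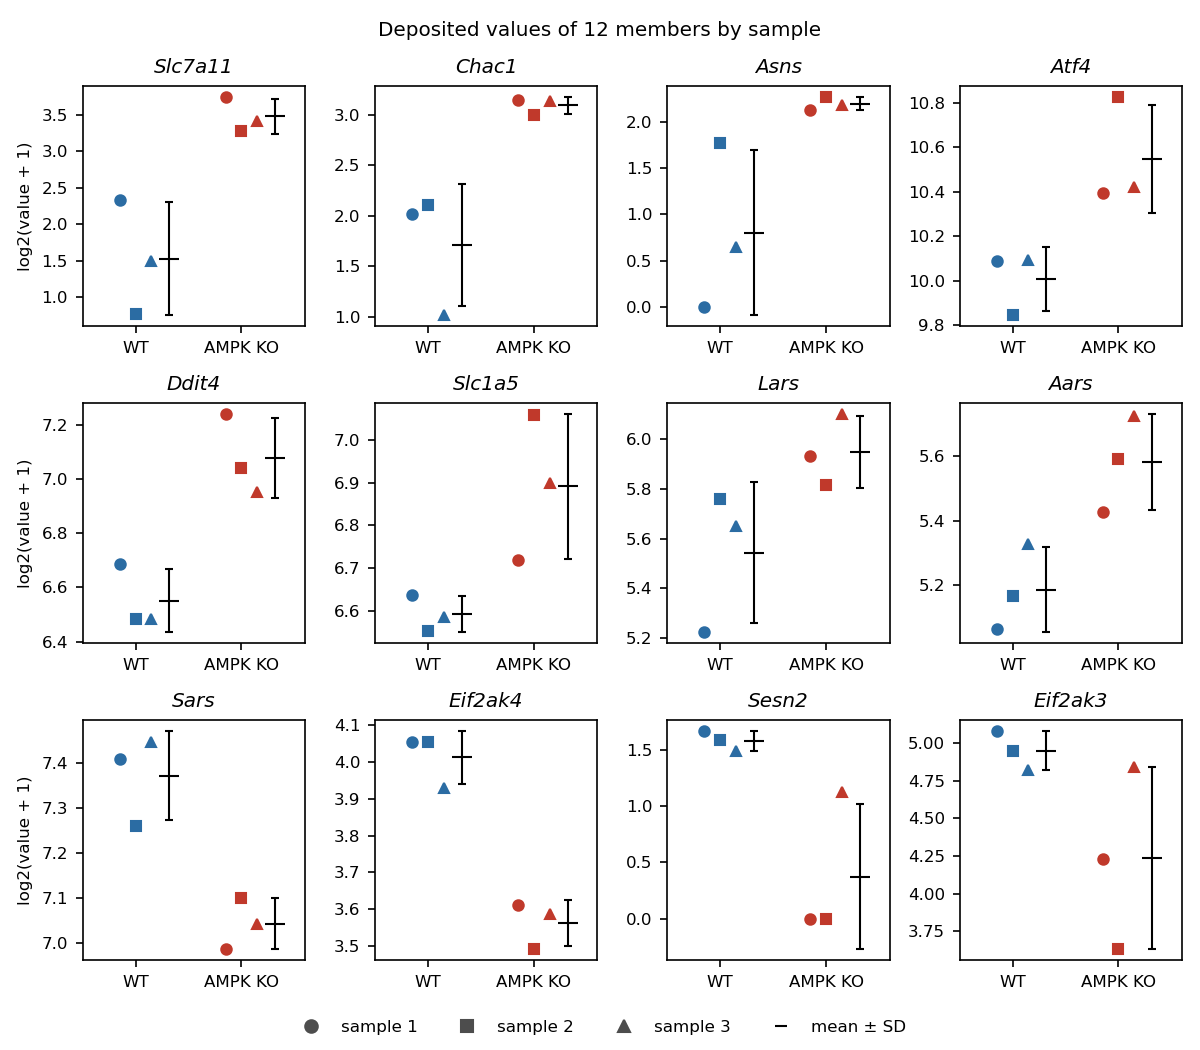
Deposited log2(value + 1) levels (y axes, a separate scale in each panel) of 12 members in WT (blue) and AMPK KO (red), with circles, squares and triangles for samples 1, 2 and 3 and black bars for the mean ± SD (n = 3). Eif2ak3 is the one panel in which the groups overlap; Asns in the first WT sample and Sesn2 in the first and second AMPK KO samples are at 0.

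Among the amino acid synthesis genes, 6 of 7 tested members averaged higher in AMPK KO, the median difference was 0.45, and none passed the test. Asns, the asparagine synthetase gene, had 0, 24 and 5 reads in WT and 40, 41 and 42 in AMPK KO, with log2 values of 0, 1.77 and 0.65 against 2.13, 2.27 and 2.18. The AMPK KO samples agreed closely and lay above the scattered WT samples. The mean level was 3.62 times that of WT, and the log2 difference of 1.39 (SE 0.49) had an adjusted p of 0.110 (limma). Without the second WT sample the difference was 1.87 and passed (adjusted p = 0.0331, limma), and the size grew to 3.05 by voom on recovered reads (adjusted p = 0.139, limma). Asns was tested through its level in AMPK KO, since its WT mean of 0.80 is under the limit of 1 set on the mean of all samples, whereas Sesn2, low in AMPK KO, was not tested. The WT library in which Asns was at 0 was also the one with the largest share of zeros among genes of 10 to 30 reads, at 7.31%. Without that library the difference was 0.99 (adjusted p = 0.354, limma).

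The serine route was measured through 3 enzymes. Phgdh, its first step, was at 4.28, 3.47 and 3.89 in WT and at 4.11, 4.48 and 4.18 in AMPK KO, a difference of 0.38 (SE 0.28, adjusted p = 0.472, limma). Psat1, the aminotransferase, was at 4.40, 4.78 and 3.69 in WT and at 4.54, 5.06 and 4.61 in AMPK KO, a difference of 0.45 (SE 0.29, adjusted p = 0.404, limma). Psph, the phosphatase that ends the route, was at 1.56, 2.04 and 2.24 in WT and at 2.77, 2.15 and 2.87 in AMPK KO, a difference of 0.65 (SE 0.39, adjusted p = 0.365, limma). All 3 enzymes averaged higher in AMPK KO, and the groups overlapped in each.

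The mitochondrial folate enzymes follow the serine route, and neither of those among the members passed the test. Shmt2, which splits serine into glycine and a one-carbon unit, was at 5.27, 4.98 and 4.90 in WT and at 5.27, 5.17 and 5.33 in AMPK KO, a difference of 0.21 (SE 0.20). Mthfd2, which oxidises that unit, was at 6.59, 6.38 and 6.38 in WT and at 6.23, 6.42 and 6.35 in AMPK KO, a difference of -0.12 (SE 0.16). Aldh18a1, the entry to proline synthesis, ranged from 0.84 to 1.56 in WT and from 1.14 to 2.80 in AMPK KO, a difference of 0.73 (SE 0.48, adjusted p = 0.417, limma) on 7 to 71 reads. Pycr1, the mitochondrial enzyme that ends proline synthesis, had 0 to 2 reads per library, below the limit that a count of 0 allows.

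The amino acid transporters averaged higher in AMPK KO in 7 of 7 cases, the median difference was 0.43, and Slc7a11 rose. Slc7a11 encodes xCT, which imports cystine in exchange for glutamate and so feeds glutathione synthesis. It was at 2.33, 0.77 and 1.49 in WT and at 3.74, 3.27 and 3.42 in AMPK KO, which were 37, 7 and 16 reads against 147, 93 and 115. Every AMPK KO sample was above every WT sample, and the WT samples were the more scattered. The mean level before the log went from 2.17 to 10.2, or 4.71-fold, and the log2 difference of 1.95 (SE 0.43) passed the test (adjusted p = 0.0163, limma). The call was lost without the third WT sample (1.93, adjusted p = 0.0761, limma), without the first AMPK KO sample (1.82, adjusted p = 0.102, limma) and with no filter on low values (adjusted p = 0.0736, limma). Macrophages also express Slc7a11. The methods describe isolation of CD4 T cells with magnetic beads or a cell sorter. The part of the myeloid markers in this result was not tested.

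Slc3a2 encodes CD98hc, the heavy chain that carries both xCT and LAT1 to the cell surface. It was at 7.42, 7.87 and 7.49 in WT and at 8.04, 7.76 and 8.27 in AMPK KO, a difference of 0.43 (SE 0.17, adjusted p = 0.152, limma). Slc7a5, which encodes LAT1, the importer of leucine and methionine, was at 2.87, 3.63 and 3.14 in WT and at 4.30, 3.03 and 4.84 in AMPK KO, a difference of 0.84 (SE 0.41, adjusted p = 0.25, limma). In both genes the second AMPK KO sample lay inside the WT range and the other two were above it. Without that sample Slc3a2 differed by 0.56 (adjusted p = 0.0198, limma) and Slc7a5 by 1.36 (adjusted p = 0.0139, limma). Without the third AMPK KO sample they differed by 0.31 (adjusted p = 0.388, limma) and by 0.45 (adjusted p = 0.628, limma). The last 1000 bases of Slc7a5 lie opposite Gm20388, and its reads share the doubt on strand.

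The neutral amino acid exchangers of the Slc1 family came next. Slc1a5, which encodes ASCT2 and imports glutamine, was at 6.64, 6.55 and 6.58 in WT and at 6.72, 7.06 and 6.90 in AMPK KO. The groups did not overlap, and the difference was 0.30 (SE 0.15, adjusted p = 0.275, limma). Slc1a4, which encodes ASCT1, was at 1.56, 1.49 and 1.94 in WT and at 1.89, 2.93 and 2.58 in AMPK KO, a difference of 0.80 (SE 0.41, adjusted p = 0.279, limma) on 18 to 71 reads. Slc7a1, the arginine and lysine importer CAT1, differed by 0.18 (SE 0.19). Slc38a2, the glutamine and alanine importer SNAT2, was at 9.39, 9.25 and 9.22 in WT and at 9.25, 9.24 and 9.42 in AMPK KO, a difference of 0.02 (SE 0.13), although it had 5274 to 8140 reads per library.

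The tRNA synthetases charge tRNA with amino acids, and their 11 genes had a median difference of 0.08, with 7 higher and 4 lower means in AMPK KO and none past the test. Aars was at 5.06, 5.17 and 5.33 in WT and at 5.43, 5.59 and 5.72 in AMPK KO, a difference of 0.40 (SE 0.19, adjusted p = 0.243, limma), and its last 1000 bases are shared with Exosc6 on the same strand. Lars was at 5.22, 5.76 and 5.65 in WT and at 5.93, 5.82 and 6.10 in AMPK KO, a difference of 0.41 (SE 0.19, adjusted p = 0.239, limma). Neither gene's groups overlapped, though the lowest AMPK KO value of Lars was close to its highest WT value.

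Sars went the other way, at 7.41, 7.26 and 7.45 in WT and at 6.99, 7.10 and 7.04 in AMPK KO. All AMPK KO samples were below all WT samples, and the difference was -0.33 (SE 0.14, adjusted p = 0.193, limma). Iars was at 4.68, 4.47 and 4.42 in WT and at 5.12, 4.62 and 4.98 in AMPK KO, a difference of 0.38 (SE 0.23, adjusted p = 0.354, limma), with the second AMPK KO sample inside the WT range. Tars was at 5.69, 5.91 and 5.61 in WT and at 6.09, 5.35 and 6.51 in AMPK KO, so that its AMPK KO samples lay on both sides of the WT range around a difference of 0.25 (SE 0.24). Gars differed by -0.20 (SE 0.17), Wars by 0.18 (SE 0.33), Mars by -0.10 (SE 0.18), Yars by 0.08 (SE 0.25), Cars by -0.04 (SE 0.22) and Nars by 0.02 (SE 0.15), all with an adjusted p of at least 0.554 (limma).

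The second AMPK KO sample was the lowest of its group in 17 members and the highest in 16, so that it held an end of the group's range in 33 of 37 (89.2%), against 79.6% of all genes tested. It was lowest in Eif2ak3, Ppp1r15a, Slc7a5, Slc3a2, Slc7a1, Iars and Tars, among others, and highest in Atf4, Cebpb, Trib3, Slc1a4 and Slc1a5. Of the 20 myeloid markers, 14 were highest of the AMPK KO group in that sample and 4 (Lyz2, Itgam, Cd14 and Mpeg1) were lowest. The median within-group SD was 0.28 over the members and 0.32 over all genes tested.

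**Figure D5:**
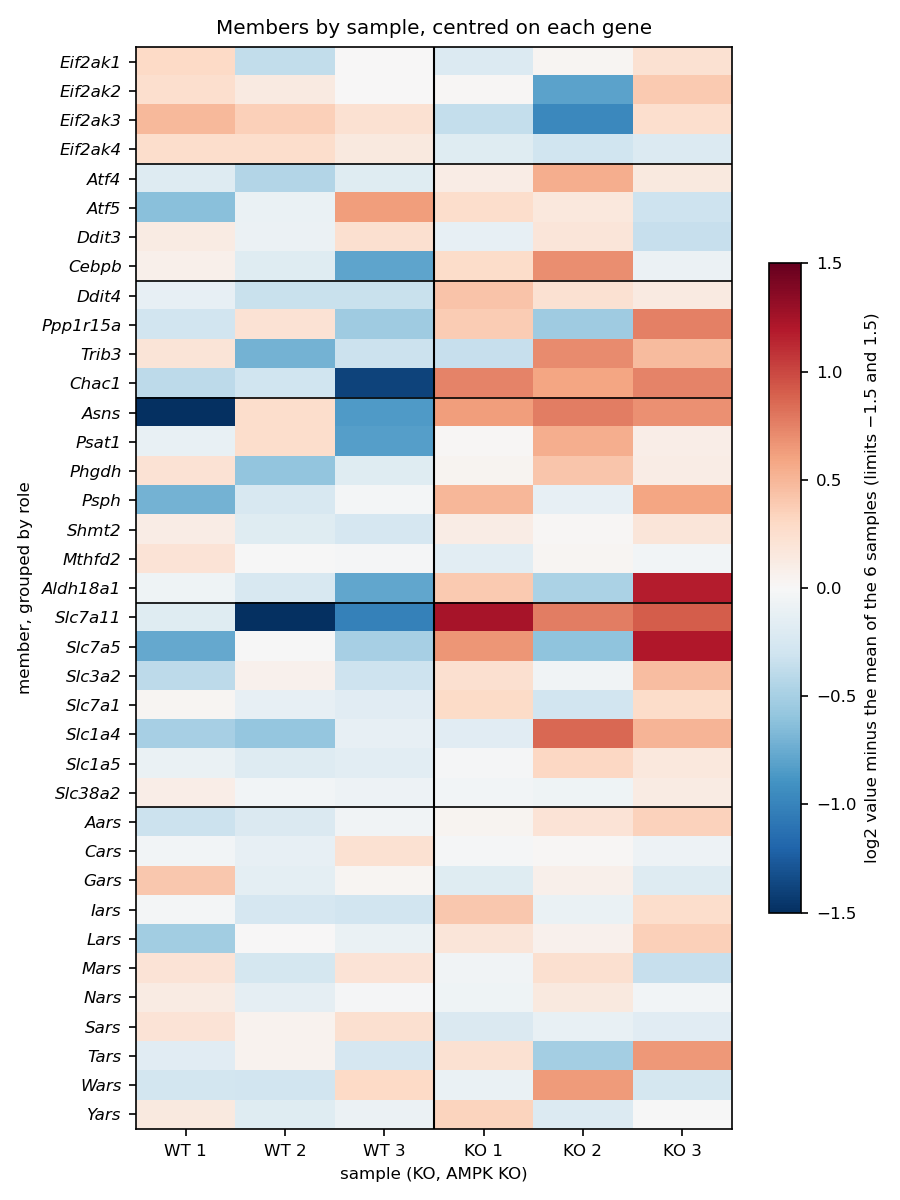
Deposited log2 values of the 37 tested members minus each gene's mean over the 6 samples (colour, red above and blue below the mean, capped at -1.5 and 1.5), in rows by role and columns by sample. The second AMPK KO sample departs from the other two in many rows, and Slc7a11, Chac1 and Asns show the widest contrast between the groups.

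The wider pathway was described through further lists, given as counts with their medians. Of 12 genes of eIF2, eIF2B and their phosphatases and regulators, none passed the test by limma, with 3 at an unadjusted p under 0.05 (21.3% of all genes reached it) and a median difference of 0.02. Of 22 other stress response genes and ATF4 targets tested, 14 had a higher mean, 8 had an unadjusted p under 0.05, the median was 0.33, and Gdf15 passed. Gdf15, a stress cytokine, was at 4.83, 4.21 and 5.24 in WT and at 5.74, 6.40 and 5.41 in AMPK KO, a rise of 1.09 (SE 0.28, adjusted p = 0.0364, limma). Its call was lost on leaving out any of 5 of the 6 libraries, the third AMPK KO sample being the exception, with adjusted p from 0.0554 to 0.145 (limma), with no filter (adjusted p = 0.119, limma) and by voom on recovered reads (adjusted p = 0.0514, limma). Fgf21 and Cbs were listed at 0 in all libraries.

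Among 10 other serine, glycine and one-carbon genes none passed by limma, with 3 at an unadjusted p under 0.05 and a median of 0.28. Among 10 other proline, glutamine and aspartate genes, with a median of 0.24, Got1 rose. Got1, the cytosolic aspartate aminotransferase, differed by 0.64 (SE 0.18, adjusted p = 0.0448, limma), and its call was lost without sample 1 or 3 of either group (adjusted p up to 0.230, limma). It was called in 5 of 14 alternatives. The call was also lost with reads scaled outside Rn45s (adjusted p = 0.0772, limma), with no filter (adjusted p = 0.102, limma) and at pseudocount 0.25 (adjusted p = 0.0511, limma). Voom on recovered reads (adjusted p = 0.0524, limma) and the replicate block (adjusted p = 0.156, limma) lost it too.

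In the methionine cycle and polyamine list, 1 of 14 genes passed, with a list median of 0.07. This was Odc1, the first enzyme of polyamine synthesis, which was at 6.40, 6.88 and 6.32 in WT and at 8.03, 7.57 and 8.13 in AMPK KO. The groups were well apart, the rise was 1.38 (SE 0.19, adjusted p = 0.000719, limma), and the call held in all 14 alternatives. Of 14 other amino acid transporters, Slc7a7 and Slc1a3 rose, against a list median of 0.06.

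Slc7a7, the light chain y+LAT1 that exports arginine and lysine, had 20, 5 and 18 reads in WT and 84, 59 and 170 in AMPK KO, a rise of 1.93 (SE 0.45, adjusted p = 0.0229, limma). Leaving out any library but the second AMPK KO sample lost this call (adjusted p 0.0522 to 0.0852, limma), as did no filter (adjusted p = 0.0847, limma) and voom on recovered reads (adjusted p = 0.0714, limma). Slc1a3, the glutamate and aspartate importer EAAT1, had 0, 1 and 4 reads in WT and 34, 58 and 43 in AMPK KO, a rise of 2.05 (SE 0.44, adjusted p = 0.0147, limma) that was lost without the first sample of either group (adjusted p up to 0.0753, limma). With a WT mean of 0.23 it was tested through its AMPK KO level alone, so a call for this gene could only be a higher one. Macrophages express both genes as well, and the part of the myeloid markers was not tested here either.

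Of 12 other cytosolic tRNA synthetase genes and their scaffold, Eprs rose by 0.53 (SE 0.14, adjusted p = 0.0401, limma), and the list median was 0.11. Eprs encodes the bifunctional glutamyl-prolyl enzyme, and its call was lost on leaving out any library but the second AMPK KO sample (adjusted p 0.0517 to 0.163, limma), with reads scaled outside Rn45s (adjusted p = 0.0584, limma) and with no filter (adjusted p = 0.0833, limma). Of 17 mitochondrial tRNA synthetases, Lars2 fell, from 5.71, 5.43 and 5.41 in WT to 4.28, 3.44 and 4.62 in AMPK KO. The difference was -1.40 (SE 0.28, adjusted p = 0.00971, limma), it was lost without WT sample 1 or 3 (adjusted p up to 0.0887, limma), and the list median was -0.02.

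Of 16 activation genes of T cells tested, 4 rose and 2 fell, against 2.54% and 3.10% of all genes, and the list median was 0.0033. Cd44, an adhesion receptor of activated cells, rose by 1.17 (SE 0.20, adjusted p = 0.00364, limma), and Ifng, the gene of interferon-γ, by 1.70 (SE 0.40, adjusted p = 0.0231, limma). Tnfrsf9, which encodes the co-stimulator 4-1BB, rose by 0.72 (SE 0.17, adjusted p = 0.0245, limma), and Tfrc, the transferrin receptor, by 0.71 (SE 0.17, adjusted p = 0.0286, limma). The immediate early genes Egr1 and Egr3 fell by 0.76 (SE 0.14, adjusted p = 0.00592, limma) and by 1.34 (SE 0.18, adjusted p = 0.000719, limma). The Egr3 call held without any one library, whereas each of the other five was lost without the first WT sample (adjusted p 0.0528 to 0.128, limma), and some also without others. With no filter Tnfrsf9 (adjusted p = 0.0614, limma) and Ifng (adjusted p = 0.0948, limma) were lost too. The part of these genes in the member values was not tested.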

How the data were processed

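The authors prepared QuantSeq libraries from 500 ng of total RNA, and the submitters' processing notes name Bowtie2, bedtools and build mm10, with versions, annotation and strand use not given in the sources used here. The deposited values are on a log2 scale, log2(normalised value + 1), with 1 file per sample. In every library, all values of up to 100 reads were whole multiples of 1 step within 0.1 read, so reads were recovered from them. They cover counting error only.

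Groups were compared with limma 3.58.1 (R 4.3.3; lmFit and eBayes with trend, two-sided) on the deposited log2 values of 11279 genes with a mean of at least 1, with Benjamini-Hochberg adjustment over all of them and a threshold of 0.05. Fold changes are on the log2(value + 1) scale, which understates those of low genes. The script was tested on simulated data. Alternatives were another normalization, scaling outside Rn45s, pseudocount 0.25, filters, robust spread, voom, a replicate block and each library left out.

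The text names all 40 members, Prkaa1, and each gene of the further pathway lists that passed the test, except that 1 gene of the lists and 1 promoter window are not reported here. The members and lists were chosen with earlier results of these data known. Genes that are mentioned outside this rule (marker and sex-linked genes, overlapping neighbours) were chosen after their values were seen. Samples of a group are described by the study as biologically independent, while the labels do not tie them to separate mice. Positions are from GENCODE M21 (GRCm38) and RefSeq (GRCm38.p6). Slc7a5, Slc1a5, Cars, Lars, Mars, Nars and Wars had no promoter entry.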

Additional observations from a re-analysis of the deposited data

How the results depend on the processing

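Of the 37 members tested, 27 kept the sign of their difference in all alternatives run, and 10 with small differences did not. Under quantile normalization Atf5 was at -0.0048, and scaled to reads outside Rn45s Eif2ak1 was at -0.029, Slc38a2 at -0.054 and Nars at -0.045. With 1 library left out, Atf5 ranged from -0.22 to 0.40, Eif2ak1 from -0.14 to 0.20, Slc38a2 from -0.044 to 0.068, Nars from -0.044 to 0.090, Cars from -0.12 to 0.062, Yars from -0.064 to 0.20, Eif2ak2 from -0.52 to 0.076, Wars from -0.091 to 0.38, Mars from -0.26 to 0.046 and Tars from -0.012 to 0.57, none of them called. Slc7a11 was called in 9 of the 13 alternatives in which it was tested (1.57 to 2.55, adjusted p 0.0101 to 0.102, limma). The count of members called higher was 2 under quantile normalization (Ddit4, Slc7a11), 2 by voom on recovered reads (Atf4, Slc7a11), 3 with a robust spread (Atf4, Chac1, Slc7a11), 0 with no filter, and 0 to 6 with 1 library left out, with 6 reached without the second AMPK KO sample. Members called lower were 0 to 1 with 1 library left out. The members' median moved to 0.18 where genes with a mean under 3 were left out, which removes low members. Over all genes, 131 were called higher and 177 lower with no filter, and leaving out 1 library gave 71 to 666 higher and 56 to 580 lower, the most without the second AMPK KO sample. Scaling to reads outside Rn45s gave 236 higher and 488 lower, so that 32.6% of calls were higher, against 45.1% of 287 and 350. The cause of these changes was not tested, other than where fewer samples or genes were used.

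The labels number the samples of both groups 1 to 3. With the replicate block, 0 members were called higher (Slc7a11 at 1.95, adjusted p = 0.0619, limma), and over all genes 50 were called higher and 52 lower. Of the genes reported from the further pathway lists, Odc1 and Egr3 kept their call with the block (adjusted p = 0.0241 and 0.0204, limma). Each of the others lost it (adjusted p 0.0585 to 0.165, limma). Deviations of same-numbered samples correlated at -0.0822, -0.321 and -0.155, and no sample correlated best with its own number. Within a group of 3 samples the deviations depend on each other. These correlations therefore cannot decide whether same-numbered samples were prepared together. Eif2ak2, Trib3, Chac1, Sesn2, Vldlr, Asns, Psph, Aldh18a1, Pycr1, Slc7a11 and Slc1a4 had fewer than 50 reads in at least 1 library, and depth limits them most.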
